A study of Mus musculus with 10 samples.

Results

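The genes described here regulate receptors coupled to G proteins in the heart. They are the receptor kinases Grk3, Grk5 and Grk6, the arrestins Arrb1 and Arrb2, the RGS proteins Rgs2, Rgs3 and Rgs4, the α1B-adrenergic receptor Adra1b and the Gαq subunit Gnaq. They were chosen by name: a gene entered when a probe set of the array was annotated with its symbol alone, and where a gene had several such probe sets the brightest, averaged across the 10 arrays, stood for it. All 10 named genes were found among the 19938 genes measured, through 11 probe sets, of which 2 belonged to Rgs3.

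RNA of whole hearts and of ventricular cardiomyocytes, which are the contracting cells of the pumping chambers, was hybridised to Affymetrix arrays. The mice were wild type (WT) or carried a knockdown (KD) of VAChT, the transporter encoded by Slc18a3 that loads acetylcholine into vesicles, and the series title names the knockdown whole hearts KDHOM. Each genotype had 3 arrays of cardiomyocytes and 2 of hearts, every array took 2 pooled RNA samples, and all mice were untreated C57BL/6 males aged 3 months. The labels do not say what drives the knockdown or whether the arrays came from separate animals beyond this pooling, so the p-values rest on array-to-array spread, part of which may be technical.

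When a noradrenaline-like signal binds its receptor, the receptor switches on a G protein, which then acts on enzymes and channels until it turns itself off. Receptor kinases phosphorylate the active receptor, arrestins bind the phosphorylated form and end its coupling, and RGS proteins speed the turning off of the G protein. In heart muscle α1-adrenergic receptors act mainly through Gαq, which activates phospholipase C β. RGS proteins also shorten the response of the heart to acetylcholine, whose muscarinic receptors couple to Gαi and Gαo.

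No gene of the 10 differed between KD and WT by the test across all genes, in cardiomyocytes or in hearts. In whole hearts Grk5, Rgs2 and Rgs4 were lower in both KD arrays than in both WT arrays, by 0.32, 0.22 and 0.37 on the log2 scale. As a background, KD hearts lay below WT hearts in 15.4% of all genes, and the genotypes did not overlap in either direction in 29.6%. No member had both KD hearts above, so the share without overlap was 3 of 10, near that background. Their promoters are shown because they are the members whose heart arrays did not overlap between the genotypes. Each stretch holds 250 bases before and 50 bases after a transcript start listed by RefSeq for mouse build GRCm38.p6, 5′ to 3′ on the strand of the gene. Grk5 lies at chr19:60889499-60889798 on the plus strand, Rgs2 at chr1:144004100-144004399 on the minus strand, and Rgs4 at chr1:169747593-169747892 on the minus strand. Capitals mark matches, on either strand, to TGACG as the core of the cyclic AMP response element, to TATAAA as the TATA box, to CCAAT as a promoter box named for its letters, and to GGGCGG as the GC box.
Grk5: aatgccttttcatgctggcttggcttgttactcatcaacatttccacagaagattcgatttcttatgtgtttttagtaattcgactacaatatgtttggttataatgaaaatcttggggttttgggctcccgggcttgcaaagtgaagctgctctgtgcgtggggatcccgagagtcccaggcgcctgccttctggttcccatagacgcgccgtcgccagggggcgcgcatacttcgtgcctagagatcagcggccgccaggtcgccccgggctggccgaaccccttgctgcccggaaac
Rgs2: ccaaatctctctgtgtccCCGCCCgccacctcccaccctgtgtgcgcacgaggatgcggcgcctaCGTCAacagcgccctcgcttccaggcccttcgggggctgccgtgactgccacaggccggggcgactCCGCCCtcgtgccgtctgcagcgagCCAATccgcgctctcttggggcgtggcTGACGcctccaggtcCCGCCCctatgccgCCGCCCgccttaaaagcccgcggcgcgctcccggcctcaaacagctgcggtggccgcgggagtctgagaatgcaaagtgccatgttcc
Rgs4: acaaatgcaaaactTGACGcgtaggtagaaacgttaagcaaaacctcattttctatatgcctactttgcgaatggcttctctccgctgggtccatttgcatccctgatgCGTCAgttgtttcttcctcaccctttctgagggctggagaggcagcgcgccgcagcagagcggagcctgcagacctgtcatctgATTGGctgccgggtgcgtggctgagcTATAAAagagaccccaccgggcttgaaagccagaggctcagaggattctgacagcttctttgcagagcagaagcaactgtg

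The Rgs2 stretch held 2 matches to TGACG, 1 to CCAAT and 4 to GGGCGG, and the Rgs4 stretch 2 to TGACG, 1 to CCAAT and 1 to TATAAA. The TATAAA match of Rgs4 began 31 bases before the listed start. No such letters were in the Grk5 stretch. The RefSeq start of the Grk5 gene, 60889560, lies within this stretch. Some of its bases before the listed transcript start are therefore inside the gene. Of all 32851 stretches of this length in the table, TGACG was in 20.8%, TATAAA was in 13.6%, CCAAT was in 37.4% and GGGCGG was in 35.7%. The share of G and C was 70.0% for Rgs2, 53.0% for Rgs4 and 54.3% for Grk5, against a median of 52.7%. The table held a stretch for 7 of the 10 members. These matches are descriptions of the letters and were not tested against the array values.

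The deposited values are log2 intensities, so a difference of 1 is a 2-fold difference in signal. An intensity depends on the probes, so levels of different genes were not compared with each other. The array medians of the named genes lay between 6.19 and 6.27 in cardiomyocytes and between 7.54 and 7.59 in hearts, and levels were therefore compared with a test only within a kind of sample. Slc18a3 was not lower in KD: its values ran from 6.04 to 6.37 in WT and from 6.21 to 6.52 in KD cardiomyocytes, and from 7.34 to 7.72 in WT and 7.31 to 7.84 in KD hearts. Neither the altered part of the gene nor the position of the probe set was known here, so these values check nothing about the labels. Genes of heart muscle, listed as ventricular but not all limited to that chamber, had their median at percentile 99.8 to 99.9 of all genes on every array. Macrophage markers had theirs at percentile 38.2 to 50.6 in cardiomyocytes and 83.2 to 90.2 in hearts. For endothelial markers it was 85.1 to 88.5 in cardiomyocytes and 94.1 to 96 in hearts. For smooth muscle and pericyte markers it was 73.6 to 76.6 in cardiomyocytes and 74.9 to 79.6 in hearts. For atrial markers it was 58.2 to 81.6 in cardiomyocytes and 83.4 to 92.9 in hearts. For fibroblast markers it was 55.7 to 62.5 in cardiomyocytes and 90 to 93.6 in hearts. The cardiomyocyte arrays were thus not free of marker signal of endothelial and other cells. KD heart replicate 1 stood apart. Of 11 measured thymocyte and T cell markers, 10 were highest there among the heart arrays, and their mean was 9.73 against 6.54 to 6.82 on the other 3 heart arrays. KD heart replicate 2 had the lowest value of 7 of 8 atrial muscle markers. Cardiomyocyte arrays varied too. Their atrial marker mean was lowest on WT replicate 3, at 7.09, and highest on WT replicate 2, at 8.27. WT replicate 3 also had the highest macrophage marker mean, 6.27 against 5.49 to 5.78 elsewhere among cardiomyocytes. All 8 macrophage and 7 of 8 atrial markers were lower in KD cardiomyocytes, with median differences of -0.27 and -0.17. The part of this variation in the cardiomyocyte differences was not tested. In tissue RNA, fewer cells of a type and less RNA per cell cannot be told apart.

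**Figure D1:**
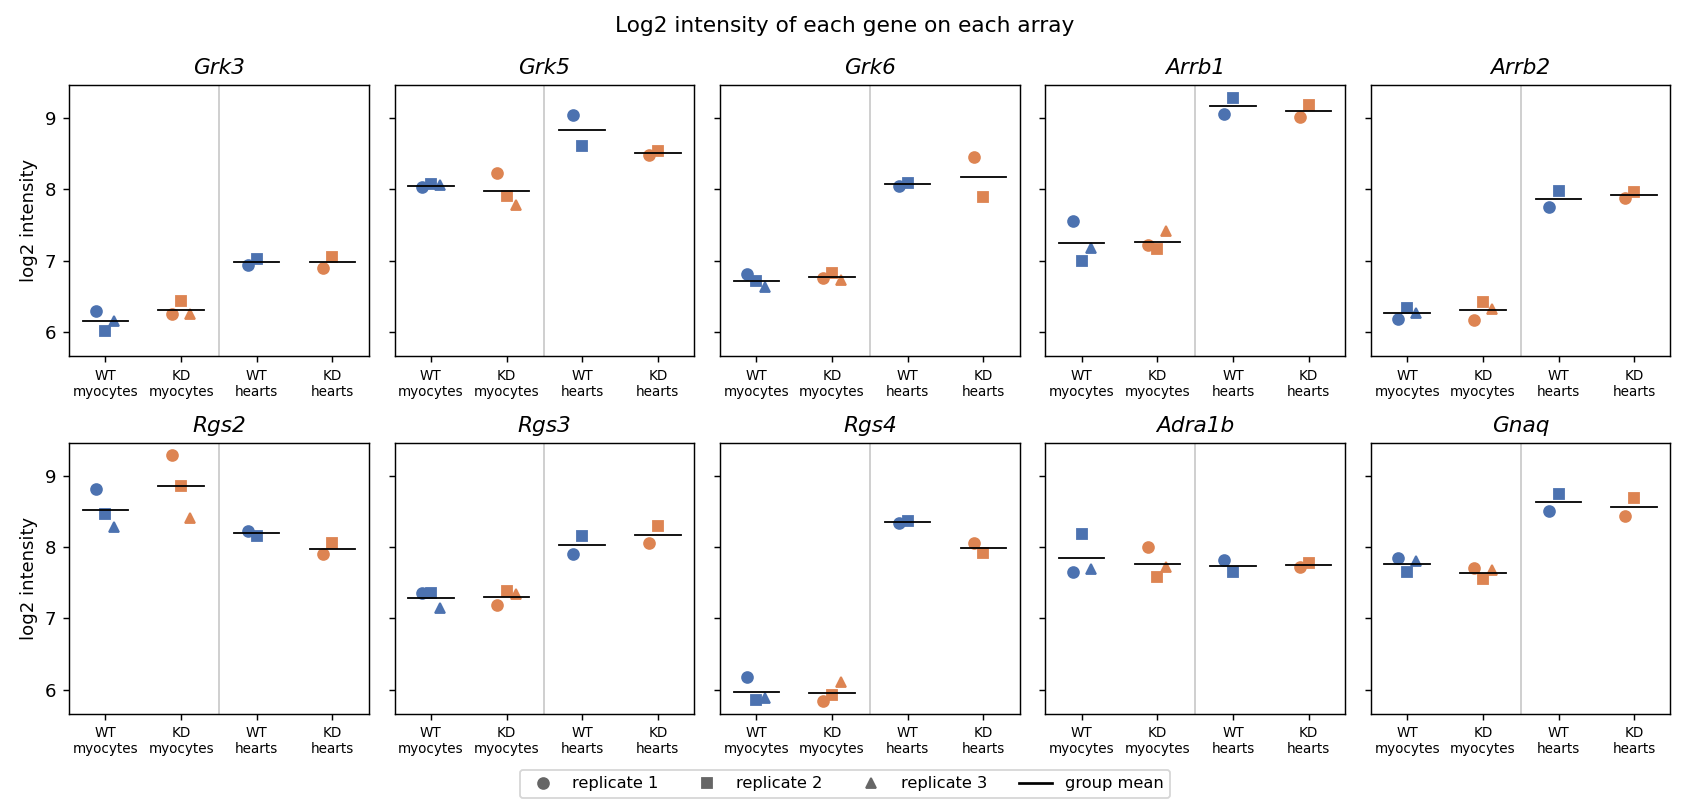
Log2 intensity of the 10 genes (1 panel each) on every array, with WT arrays in blue, KD arrays in orange, the replicate number as the symbol and the group mean as a bar. The KD and WT points of a kind of sample overlap in all panels except Grk5, Rgs2 and Rgs4 in hearts, where each KD heart lies below each WT heart.

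KD and WT cardiomyocytes were compared to ask whether the knockdown goes with other levels of these regulators in the isolated cells. Their arrays also carried marker signal of endothelial and other cells. Of the 10 genes 4 were lower and 6 higher in KD, with a median difference of 0.02, where 50% of all genes were lower and the median of all genes was 0.00. By limma, a linear model that shares the estimate of the spread across genes, 0 of the 10 passed an adjusted p of 0.05, as did 0% of all genes. At an unadjusted p below 0.05 there were 0 of the 10 and 2.1% of all genes. The arrays of the genotypes overlapped for all 10. For 6.21% of all genes they did not, with KD below WT in 3.21% and above it in 2.99%.

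The receptor kinases were described first. Grk5 phosphorylates adrenergic receptors at the membrane and can also act in the nucleus of heart muscle cells. Its log2 intensity was 8.03, 8.07 and 8.06 in WT cardiomyocytes and 8.23, 7.90 and 7.79 in KD. The WT arrays lay within 0.04 of each other, and the KD arrays lay on both sides of them. The difference was -0.08 (SE 0.14, 95% confidence interval -0.37 to 0.21). Grk3, a kinase that is drawn to the membrane by free Gβγ, was 6.29, 6.02 and 6.17 in WT against 6.26, 6.43 and 6.26 in KD. Its groups overlapped, its level lay near the array medians, and as no detection calls were at hand it may lie at background. Its difference was 0.16 (interval -0.07 to 0.38). Grk6, a relative of Grk5, ranged from 6.63 to 6.81 in WT and from 6.74 to 6.83 in KD, with a difference of 0.05 (interval -0.23 to 0.33).

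The arrestins Arrb1 and Arrb2 bind phosphorylated receptors of many kinds. Arrb1 was 7.56, 7.00 and 7.18 in WT cardiomyocytes and 7.22, 7.16 and 7.42 in KD. The highest and the lowest of these values were both WT arrays, and the difference was 0.02 (interval -0.29 to 0.33). Arrb2 ranged from 6.19 to 6.34 in WT and from 6.18 to 6.42 in KD, with a difference of 0.04 (interval -0.19 to 0.27). Its level, like that of Grk3, lay near the array medians, so it too may lie at background there.

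Among the RGS proteins, Rgs2, which acts preferentially on Gαq and whose gene is known to respond quickly to hormones that raise cyclic AMP, had the widest spread. It was 8.81, 8.46 and 8.27 in WT cardiomyocytes and 9.29, 8.85 and 8.41 in KD. The highest array was a KD array and the lowest a WT array, but KD replicate 3 lay below both WT replicate 1 and WT replicate 2. The KD mean was 8.85 ± 0.44 and the WT mean 8.51 ± 0.27 (SD, n = 3 each). The difference of 0.34 (SE 0.19, interval -0.08 to 0.75) had an unadjusted p of 0.102 and, by limma, an adjusted p of 1. It was 0.12 without KD replicate 1 and 0.56 without KD replicate 3. Rgs4, which acts on Gαi, Gαo and Gαq, was 6.18, 5.87 and 5.88 in WT against 5.84, 5.93 and 6.12 in KD. These values lay below the array medians of the named genes, and no detection call says whether Rgs4 RNA was above background there. Its difference was -0.01 (interval -0.27 to 0.24). Rgs3 ranged from 7.15 to 7.35 in WT and from 7.19 to 7.38 in KD, and its difference of 0.02 (interval -0.23 to 0.27) was close to the -0.005 of its dimmer probe set.

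Of the receptor and the G protein, Adra1b was 7.66, 8.18 and 7.69 in WT cardiomyocytes and 7.99, 7.57 and 7.72 in KD. WT replicate 2 was the highest and KD replicate 2 the lowest, and the difference was -0.08 (interval -0.40 to 0.24). Gnaq was 7.84, 7.65 and 7.80 in WT against 7.70, 7.55 and 7.68 in KD. Its groups overlapped through WT replicate 2, and the difference was -0.12 (SE 0.11, interval -0.37 to 0.13).

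**Figure D2:**
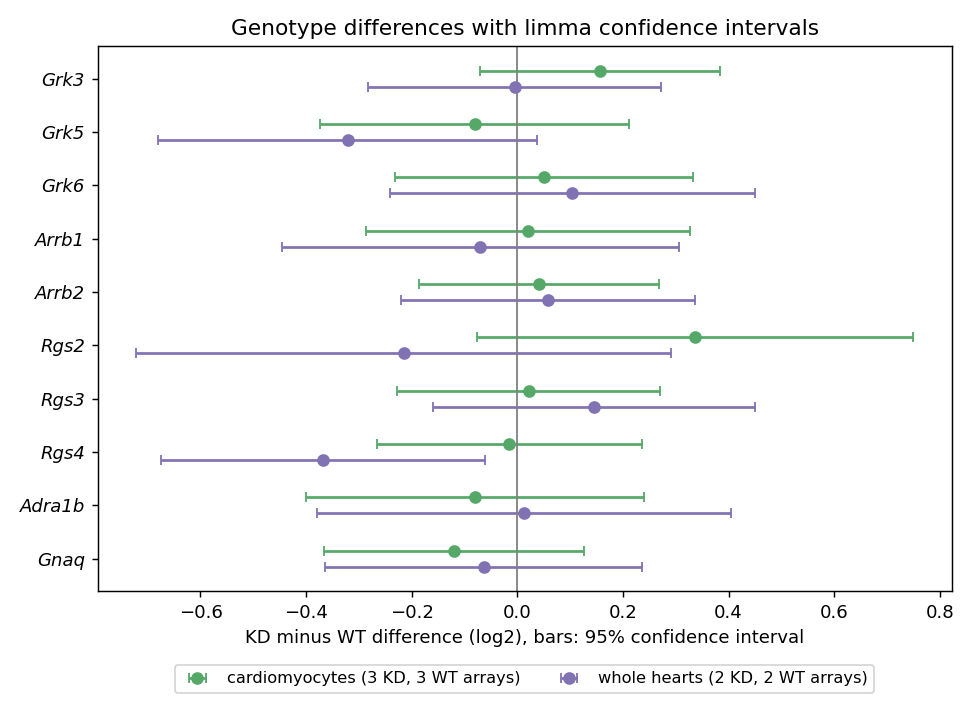
KD minus WT differences of the 10 genes on the log2 scale (points) with limma's 95% confidence intervals (bars), for cardiomyocytes in green and whole hearts in purple. Of the 20 intervals all but that of Rgs4 in hearts (-0.68 to -0.06) include 0, and no difference passed after adjustment over all genes.

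The same comparison was made in whole hearts, whose RNA also comes from vessels, nerves, blood and connective tissue. Of the 10 genes 6 were lower and 4 higher in KD, with a median difference of -0.03, where 47.5% of all genes were lower, 52.5% higher and the median of all genes was 0.01. By limma 0 of the 10 passed, as did 0% of all genes, and at an unadjusted p below 0.05 there was 1 of the 10, Rgs4, against 4.93% of all genes, of which 2.49% were lower and 2.44% higher in KD. Each KD heart lay below each WT heart in 3 of the 10 genes and in 15.4% of all genes, and above each WT heart in 0 of the 10 and 14.2% of all genes. In either direction the arrays did not overlap for 3 of the 10 genes and 29.6% of all genes, so the share among the 10 was near that background.

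Rgs4 had the smallest unadjusted p of the 10 in hearts. WT hearts gave 8.34 and 8.37, and KD hearts gave 8.06 and 7.91. The WT hearts lay within 0.03 of each other, and both KD hearts lay below them. The KD mean was 7.98 ± 0.10 and the WT mean 8.35 ± 0.02 (SD, n = 2 each), a difference of -0.37 (SE 0.14, interval -0.68 to -0.06), or 1.29-fold lower. The unadjusted p was 0.0223 and the limma adjusted p 0.95, and over the alternatives the adjusted p ran from 0.42 to 1. With KD replicate 1 left out, which carried the thymocyte signal, the difference was -0.44, and without KD replicate 2 it was -0.30. Relative to the mean of WT hearts, the atrial marker list (8 of 8 genes measured) averaged -0.25 in KD replicate 1 and -0.93 in KD replicate 2, and Rgs4 was at -0.30 and -0.44. The smooth muscle and pericyte list (8 of 8 measured) averaged -0.21 and -0.09, the fibroblast list -0.21 and -0.29, and the endothelial list -0.15 and -0.25. All 8 genes of the fibroblast list and all 8 of the endothelial list were lower in KD hearts. So were all 10 genes of the heart muscle list, with a median difference of -0.10. All 6 measured red cell and platelet markers were higher, with a median of 0.44. The part of these markers in the Rgs4 difference was not tested.

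Grk5 was 9.05 and 8.61 in WT hearts and 8.48 and 8.53 in KD hearts. Both KD values were close together and WT replicate 1 stood highest. The KD mean was 8.51 ± 0.04 and the WT mean 8.83 ± 0.31 (SD, n = 2 each). The difference of -0.32 (SE 0.17, interval -0.68 to 0.04) had an unadjusted p of 0.0752 and a limma adjusted p of 1. Leaving out WT replicate 1 gave -0.10 and leaving out WT replicate 2 gave -0.54, so 1 WT array set most of its size. Rgs2 was 8.22 and 8.15 in WT hearts and 7.90 and 8.05 in KD hearts. The KD hearts were the lower pair. Its difference was -0.22 (SE 0.23, interval -0.72 to 0.29, limma adjusted p 1). This SE draws on the spread within all 4 groups. Rgs2 varied more in cardiomyocytes (SD 0.27 in WT and 0.44 in KD) than in hearts (0.05 and 0.11).

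Grk6 divided the KD hearts. It was 8.05 and 8.09 in WT hearts, 8.46 in KD replicate 1 and 7.89 in KD replicate 2. The KD arrays thus lay on both sides of the WT arrays, and the difference was 0.10 (SE 0.16, interval -0.24 to 0.45). It was -0.18 without KD replicate 1 and 0.39 without KD replicate 2. The thymocyte and T cell list averaged 3.05 above the WT hearts in KD replicate 1 and 0.08 above them in KD replicate 2, and Grk6 was 0.39 above and 0.18 below the WT mean on these arrays. Whether the 2 are related was not tested.

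**Figure D3:**
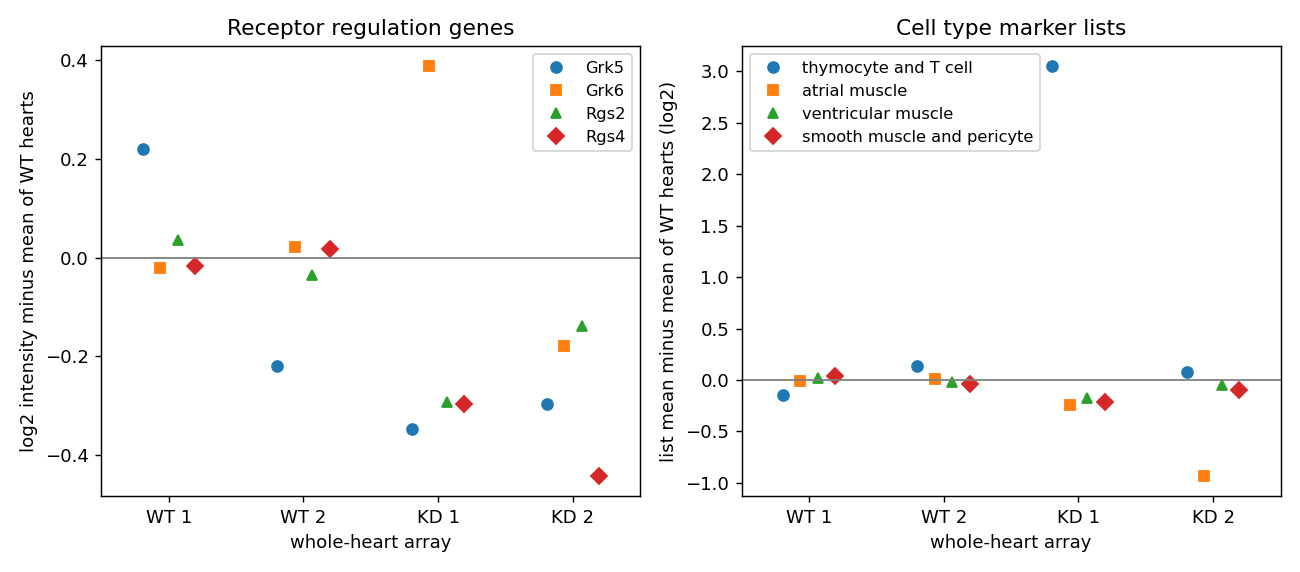
The 4 whole-heart arrays on the horizontal axis, with log2 intensity relative to the mean of the WT hearts for Grk5, Grk6, Rgs2 and Rgs4 (left) and the mean of 4 marker lists on the same scale (right). The thymocyte and T cell list is 3.05 above the WT hearts in KD replicate 1, where Grk6 is highest. The atrial list is 0.93 below them in KD replicate 2, where Rgs4 is lowest. The fibroblast and endothelial lists, not plotted, are also lowest in KD replicate 2, and the ventricular and smooth muscle lists are lowest in KD replicate 1. Relations between genes and lists were not tested.

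The other members differed little between the genotypes in hearts. Arrb1 read 9.06 and 9.28 in WT hearts against 9.01 and 9.19 in KD hearts, and Arrb2 read 7.75 and 7.98 against 7.88 and 7.97. The genotypes overlapped for both arrestins, and the differences were -0.07 (interval -0.45 to 0.31) and 0.06 (interval -0.22 to 0.34). Gnaq read 8.50 and 8.75 in WT hearts against 8.43 and 8.69 in KD hearts, a difference of -0.06 (interval -0.36 to 0.24). Rgs3 read 7.91 and 8.15 against 8.05 and 8.30, a difference of 0.14 (interval -0.16 to 0.45), against 0.07 for its dimmer probe set. It ran from 0.022 to 0.27 with 1 heart array left out. Adra1b differed by 0.01 (interval -0.38 to 0.41), with the 2 KD hearts at 7.72 and 7.77 between the WT hearts at 7.81 and 7.66. Grk3, at 6.95 and 7.02 in WT hearts against 6.90 and 7.06 in KD hearts, differed by -0.005 (interval -0.28 to 0.27). These Grk3 values lay below the array medians and may also lie at background.

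The difference between the KD effects in cardiomyocytes and in hearts was tested directly. It passed for 0 of the 10 genes and 0% of all genes by limma, and at an unadjusted p below 0.05 for 0 of the 10 and 3.49% of all genes. Rgs2 had the largest value, 0.55 (SE 0.30, interval -0.10 to 1.20; unadjusted p 0.0912, limma adjusted p 0.999), from 0.34 in cardiomyocytes and -0.22 in hearts. For Rgs4 the value was 0.35 (SE 0.18, interval -0.04 to 0.75; unadjusted p 0.0758, limma adjusted p 0.999). The intervals of the other 8 genes included 0 as well, with values between -0.12 and 0.24.

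Levels in isolated cardiomyocytes and whole hearts were set side by side without a test. The 2 kinds of sample apparently were normalized separately, and the labels name different labelling manuals for them, so tissue and processing cannot be told apart. As deposited, the median gene was 1.20 lower in WT cardiomyocytes than in WT hearts, and 2 of the 10 genes were higher in cardiomyocytes (7.05% of all genes). With each array centred on its median, 6 of the 10 were higher (56.9% of all genes), and 6 with quantile normalization of all arrays (50.9% of all genes). In KD the cardiomyocyte mean was higher for 2 of the 10 as deposited (8.15% of all genes), 6 after centring (56.9%) and 5 after quantile normalization (51.1%).

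Rgs2 stood higher in cardiomyocytes under all 3 scalings, with every cardiomyocyte array above every heart array of its genotype. It was 2.06 to 2.61 above the array median in WT cardiomyocytes and 0.61 to 0.69 above it in WT hearts. The WT difference was 0.32 as deposited, 1.65 after centring and 1.22 after quantile normalization, and in KD it was 0.88, 2.23 and 1.82. Adra1b followed the same direction, with WT differences of 0.11, 1.43 and 1.18; as deposited its arrays overlapped. Every cardiomyocyte array lay above every heart array for 4.69% of all genes in WT and 5.48% in KD as deposited, for 45.8% and 45.2% after centring, and for 38.2% and 37.9% after quantile normalization.

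Rgs4 stood lower in cardiomyocytes under all 3 scalings in both genotypes. It was 0.80 to 0.83 above the array median in WT hearts and 0.01 to 0.36 below it in WT cardiomyocytes, and the WT difference was -2.38 as deposited, -1.05 after centring and -1.23 after quantile normalization. Arrb1 and Arrb2 also lay lower on every cardiomyocyte array under the 3 scalings, by 0.60 and 0.27 in WT after centring. Every cardiomyocyte array lay below every heart array for 88.9% of all genes in WT and 87.7% in KD as deposited, for 32.5% and 31% after centring, and for 36.2% and 34.9% after quantile normalization. Grk3, Rgs3, Grk5 and Gnaq were lower in cardiomyocytes as deposited and higher after centring, so their direction depended on the scaling. After quantile normalization the WT differences of Grk5 and Gnaq were 0.04 and 0.02, and their cardiomyocyte and heart arrays overlapped. In KD those of Rgs3 and Gnaq overlapped. Grk6 lay 1.35 lower as deposited, 0.02 lower after centring and 0.23 lower after quantile normalization.

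**Figure D4:**
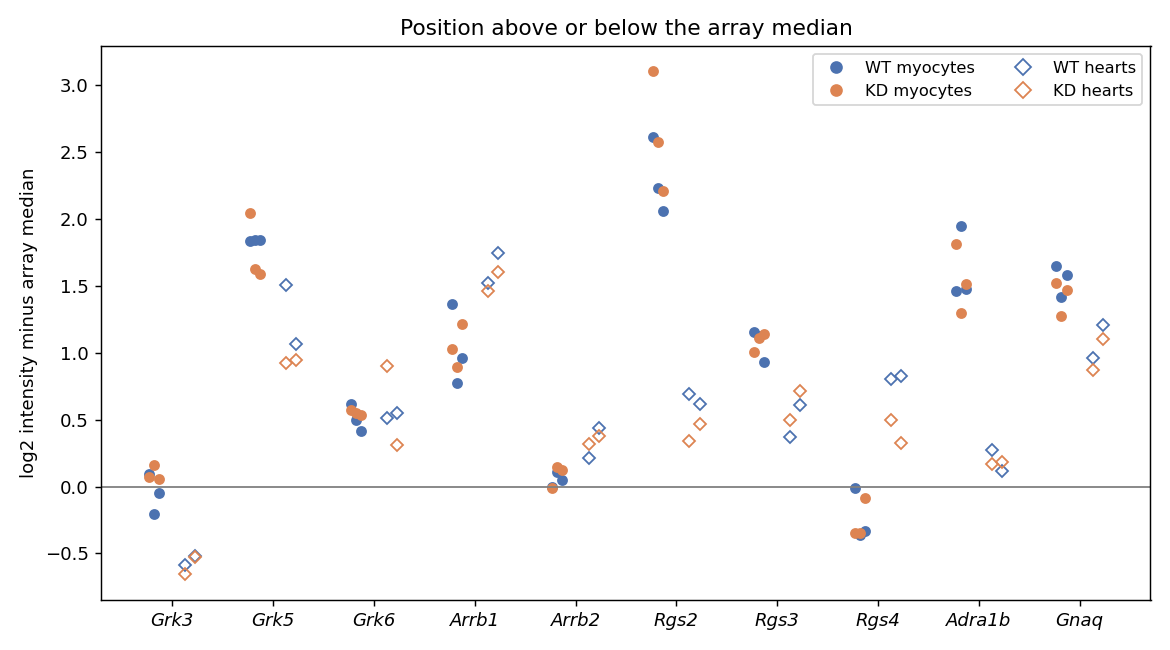
Log2 intensity minus the array median of the named genes for the 10 genes, with cardiomyocyte arrays as filled circles and heart arrays as open diamonds, WT in blue and KD in orange. Grk3, Grk5, Rgs2, Rgs3, Adra1b and Gnaq lie higher on every cardiomyocyte array than on any heart array, Rgs4, Arrb1 and Arrb2 lower, and the arrays of Grk6 overlap. On the deposited scale, which is not plotted, Grk3, Grk5, Rgs3 and Gnaq lie lower in cardiomyocytes. After quantile normalization, also not plotted, the arrays of Grk5 and Gnaq overlap in WT and those of Rgs3 and Gnaq in KD.

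Other genes of the pathway were taken from 6 lists with 69 entries, of which 58 were measured. None passed in either kind of sample. At an unadjusted p below 0.05 there were 0 of 58 in cardiomyocytes (2.1% of all genes) and 5 of 58 in hearts (4.93% of all genes). In cardiomyocytes 36 were lower and 22 higher, with a median of -0.03, and in hearts 30 were lower and 28 higher, with a median of -0.02.

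The list of other RGS proteins, which includes their Gβ5 partner Gnb5, had 18 of 19 genes measured. In hearts 8 were lower and 10 higher, with a median of 0.06, and in cardiomyocytes 10 were lower and 8 higher, with a median of -0.03. The 3 with the smallest unadjusted p in hearts were Rgs7, Rgs6 and Rgs5, and none passed (limma adjusted p 0.94, 0.95 and 0.95). Rgs6 is known to shorten the muscarinic slowing of the heartbeat, and Rgs6 and Rgs7 both need Gnb5 for their stability. Rgs6 was 8.37 and 8.36 in WT hearts and 8.00 and 8.10 in KD hearts, a difference of -0.32 (SE 0.12). Rgs7 read 6.26 and 6.40 in WT hearts against 5.90 and 5.78 in KD hearts, a difference of -0.49 (SE 0.14), at a level below the array medians. Rgs5, a gene typical of pericytes and the protein-coding neighbour of Rgs4 in the RefSeq table, read 11.64 and 11.49 in WT hearts against 11.27 and 11.09 in KD hearts, a difference of -0.39 (SE 0.15). In all 3, as in Rgs4, each KD heart lay below each WT heart. Rgs20, also under an unadjusted p of 0.05 and named after its values were seen, was 0.28 higher in KD hearts (SE 0.12; limma adjusted p 0.998).

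Gnb5, named after its values were seen, was 8.71 and 8.44 in WT hearts and 8.42 and 8.35 in KD hearts, a difference of -0.19 (SE 0.12; limma adjusted p 1). Leaving out WT replicate 1 gave -0.051, and leaving out WT replicate 2 gave -0.32. Of the 18 genes 5 had both KD hearts below both WT hearts (15.4% of all genes) and 4 above (14.2% of all genes), so the list did not move in 1 direction. In cardiomyocytes the 3 genes with the smallest p were Rgs1, Rgs19 and Rgs18, at differences of -0.18, -0.13 and -0.38, and the KD and WT arrays of all 18 overlapped. With 1 array left out these ran from -0.30 to -0.089, from -0.20 to -0.045 and from -0.54 to -0.13. In cardiomyocytes Rgs1 (4.18 to 4.66) and Rgs18 (3.29 to 4.23) lay below the array medians. No detection call says whether either was above background there. The highest Rgs18 value among cardiomyocytes, 4.23, was that of WT replicate 3. Rgs18, a gene of platelets and other blood cells, was 7.28 and 9.08 in WT hearts and 8.71 and 9.03 in KD hearts, a difference of 0.69 (SE 0.41; limma adjusted p 1). The genotypes overlapped, and WT replicate 1 stood lowest. The red cell and platelet list averaged 8.69 and 9.36 in these WT hearts and 9.46 and 9.67 in the KD hearts, and its part in the Rgs18 values was not tested.

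**Figure D5:**
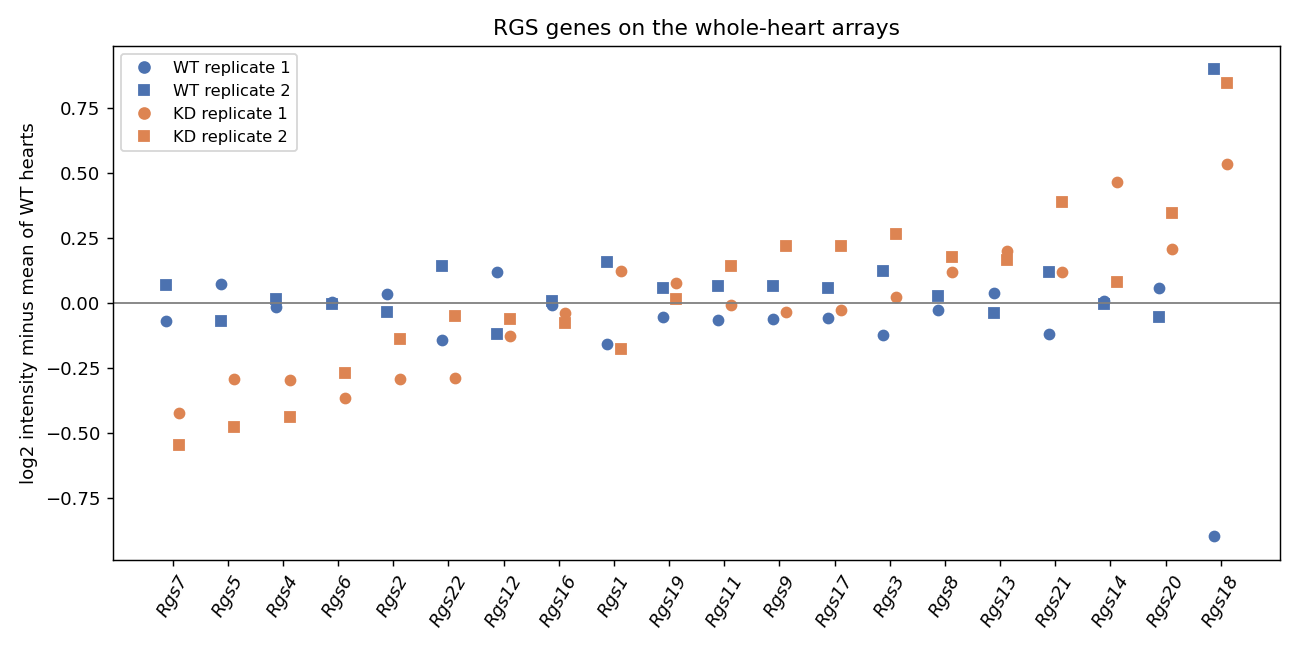
RGS genes on the 4 whole-heart arrays as log2 intensity relative to the mean of the WT hearts, ordered by the KD mean, with WT in blue, KD in orange and the replicate as the symbol. In Rgs7, Rgs5, Rgs4, Rgs6, Rgs2 and Rgs16 each KD heart lies below each WT heart, in Rgs8, Rgs13, Rgs14 and Rgs20 each lies above, and the WT hearts of Rgs18 are 7.28 and 9.08.

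The remaining lists gave small differences, apart from Prkcb in hearts, which is described below. The receptor kinases and arrestins of the eye and testis (Grk1, Grk4, Sag and Arr3; 4 of 5 listed genes measured) had a median of -0.02 in cardiomyocytes, where Sag had the smallest p at -0.18, and of 0.09 in hearts, where Grk1 had it at 0.10. With 1 array left out Sag ran from -0.25 to -0.037 and Grk1 from 0.0095 to 0.18. Sag in cardiomyocytes and Grk1 in hearts lay below the array medians. Grk2, the best known kinase of cardiac β-adrenergic receptors, was not analysed here. Of 9 other receptors 2 were measured. They were Agtr1a, an angiotensin receptor, at -0.16 in cardiomyocytes and -0.23 in hearts, and the endothelin receptor Ednrb, at -0.03 and -0.21. Without WT replicate 2 the heart value of Agtr1a was 0.07, and without WT replicate 1 it was -0.52. The β-adrenergic receptors were not analysed here.

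Of 10 measured Gα genes 8 were lower in KD cardiomyocytes, with a median of -0.06, where Gnao1 had the smallest p at -0.18 (SE 0.14), and 4 were lower in hearts, with a median of 0.03, where Gnai2 had it at 0.17 (SE 0.14). Of 13 Gβ and Gγ genes 7 were lower in cardiomyocytes and 10 in hearts, with medians of -0.02 and -0.09. Gng2 had the smallest p in cardiomyocytes at -0.16, and Gng3 in hearts at -0.19 (SE 0.11). Gng3 lay below the array medians there. Both KD hearts lay below both WT hearts in 5 of these 13 genes (15.4% of all genes). No member of these lists passed.

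Of 11 measured genes acting after Gαq, 7 were lower in cardiomyocytes and 5 in hearts, with medians of -0.02 and 0.04. Plcb2, a phospholipase C of blood cells, had the smallest p in cardiomyocytes at 0.21 (SE 0.14), at a level below the array medians. Prkcb, a protein kinase C that lymphocytes also express, had it in hearts, at 7.64 and 7.78 in WT, 9.39 in KD replicate 1 and 8.04 in KD replicate 2. The highest value lay on the array with the thymocyte signal. Its difference of 1.00 (SE 0.30; limma adjusted p 0.95) was 0.33 without that array and 1.67 without KD replicate 2, where it passed with a limma adjusted p of 4.6e-05 and KD replicate 1 was the only KD heart left.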

How the data were processed

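Log2 intensities of 35556 probe sets on 10 arrays were deposited. RMA and Partek had been used by the authors, per the submitters' processing notes; neither versions nor settings are stated. RMA tends to compress differences of dim genes. Of the probe sets 21789 carried 1 symbol in the platform annotation, 1621 several and 12146 none, which left 19938 genes after keeping the brightest probe set of each. Lists were matched by symbol or Entrez identifier.

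The fit took the 10 arrays together, with a mean for each of the 4 groups, in limma 3.58.1 (R 4.3.3) with eBayes and an intensity trend (6 residual and 6.81 prior degrees of freedom). The SE and p-value of a heart difference thus also rest on the spread of the cardiomyocyte arrays, and the reverse. P-values are two-sided and were adjusted by Benjamini and Hochberg across every gene, with 0.05 as the threshold. The number of arrays limits the precision: the median 95% confidence interval reached 0.25 to either side in cardiomyocytes and 0.31 in hearts. The smallest two-sided p that permuting 3 and 3 arrays allows is 0.1, and for 2 and 2 arrays, as in hearts, it is 0.333. On simulated data with 200 changed genes of 19938, in 10 runs, 1.5-fold changes were recovered in 55.5% of cases in cardiomyocytes and 30.2% in hearts, and 2-fold changes in 92.1% and 77.9%. The simulated noise was normal, independent between genes and of the same SD per gene in both kinds of sample. Shifts shared by many genes, as the marker lists showed on the KD hearts, were not simulated. These shares therefore need not hold for the deposited arrays.

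The members and lists were chosen with earlier results of these data known. Named genes were the 10 members and, per pathway list and contrast, up to 3 genes with the smallest unadjusted p; the text gives 3 for RGS genes and 1 for the other lists, and both measured receptors. Alternatives were other scalings, a filter that leaves out the dimmest 40% of genes, the mean of probe sets, fits on 1 kind of sample, array weights, eBayes without a trend or robust, removal of a loess trend (span 0.3) from KD hearts, a replicate block, an adjusted p of 0.1, and leaving out each array.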

Additional observations from a re-analysis of the deposited data

How the results depend on the processing

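Under the alternatives run, 0 of the 10 genes passed in any comparison. Over all genes the heart count of 0 became 303 without KD replicate 2, 2 without WT replicate 1, 1 without KD replicate 1 and 1 with the replicate block; for the difference between the KD effects it ranged from 0 to 237 with 1 array left out. The replicate numbers were not treated as pairs, because the labels do not say what they mark. Deviations of same-numbered cardiomyocyte arrays correlated at 0.15, 0.13 and -0.05, and those of different-numbered ones at -0.19 to 0.07. Both same-numbered pairs of heart arrays gave 0.23. This is 1 value, as the 2 arrays of a group deviate equally in opposite directions. Rgs2 in cardiomyocytes was higher in KD in every same-numbered pair, and Gnaq was lower in KD in every such pair. The share of all genes with 1 direction in every pair was not counted. With the block Rgs2 in cardiomyocytes had an unadjusted p of 0.0104 and a limma adjusted p of 1, and the block changed no call of a named gene. Small differences changed sign. Adra1b in hearts was -0.011 with quantile normalization, -0.020 with centring and -0.0052 with the loess trend removed, Rgs4 in cardiomyocytes was 0.057 with array weights, and the difference between effects of Arrb2 was 0.0075 with centring. With 1 array left out, the ranges in cardiomyocytes were -0.21 to 0.012 for Grk5, -0.10 to 0.18 for Arrb1, -0.015 to 0.10 for Arrb2, -0.047 to 0.078 for Rgs3, -0.093 to 0.089 for Rgs4 and -0.20 to 0.088 for Adra1b. In hearts they were -0.083 to 0.073 for Grk3, -0.18 to 0.39 for Grk6, -0.18 to 0.042 for Arrb1, -0.054 to 0.17 for Arrb2, -0.066 to 0.091 for Adra1b, -0.19 to 0.066 for Gnaq, -0.52 to 0.065 for Agtr1a and -0.052 to 0.39 for Gnai2. For the difference between effects they were -0.34 to 0.23 for Grk6, -0.032 to 0.25 for Arrb1, -0.13 to 0.094 for Arrb2, -0.21 to 0.075 for Adra1b and -0.19 to 0.074 for Gnaq. Sizes also moved without a change of sign: 0.088 to 0.22 for Grk3, 0.0050 to 0.096 for Grk6, -0.18 to -0.073 for Gnaq, -0.23 to -0.11 for Agtr1a, -0.25 to -0.094 for Gng2, 0.10 to 0.30 for Plcb2 and -0.25 to -0.12 for Gnao1 in cardiomyocytes, and -0.29 to -0.14 for Rgs2 and -0.26 to -0.11 for Gng3 in hearts. The heart differences of Grk5, Rgs2, Rgs4, Rgs5, Rgs6 and Rgs7 kept their sign in the alternatives that gave a value; Rgs7 was too dim for the filtered fit. Of the 10 members 6 were higher in WT cardiomyocytes than in WT hearts with centring and 6 with quantile normalization, against 2 as deposited. Where 1 heart array of a genotype was left, its spread was taken to equal that of the remaining arrays. The causes of these changes were not tested.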
